A study of Mus musculus with 6 samples.

Results

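The genes described here are 42 genes of the cell division cycle, 16 that work in DNA replication (S phase) and 26 that work in mitosis or drive entry into it, measured in iWAT, the inguinal white fat pad under the skin. They were chosen by name from a list and matched by gene symbol, and all 42 had a row among the 15176 genes of the deposited table. The study asked how Steap4, a metalloreductase, bears on mitochondrial dysfunction of fat under a high-fat diet (HFD). RNA of 4 Steap4f/f libraries (replicates 1, 2, 5 and 6), from mice with loxP-flanked Steap4 alleles, was compared with RNA of 2 Steap4AKO libraries (replicates 2 and 3), from mice that lack Steap4 in adipocytes. The former are called the controls below, and their values are given in the order of these numbers. The latter are called AKO 2 and AKO 3 where single values are given. All 6 libraries came from HFD-fed mice. The Cre driver, the age and the sex of the mice are not given in the sources used here, nor is it stated whether the libraries came from different mice, so p-values measure only the spread between these samples.

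Before a cell divides it must copy its genome once and then separate the copies. In S phase, origins are licensed by Cdc6 and Cdt1, which load the ring-shaped Mcm helicase, and the sliding clamp Pcna, the replication enzymes and the enzymes of nucleotide supply follow. In mitosis, cyclin-dependent kinase 1 with its cyclins, the Aurora and Polo-like kinases, the spindle motors and the anaphase-promoting complex condense, align and separate the chromosomes. Transcripts of both sets are low in non-dividing cells, and mature adipocytes do not divide. In adipose tissue the dividing cells are mostly immune, vascular and stromal cells. In bulk samples such as these, fewer cells of a type and less RNA per cell cannot be told apart.

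Promoters of the 2 sets differ in short sequence motifs, and examples are shown because the sets also had differences of unlike size below. RefSeq promoters on GRCm38.p6, 250 bases before to 50 after the start of each gene, were matched to 35 of the 42 members by symbol, the first entry being used where a gene had several. Searched on both strands was the cell cycle homology region (CHR), spelled TTTGAA or with a central cytosine as TTCGAA. The CCAAT box was searched as CCAAT. E2F words were searched as TTCCCGC, also with the spelling TTGGCGC, further with the spelling TTCGCGC and finally with the spelling TTGCCGC. E2F words can overlap each other and a CCAAT box, and overlapping matches were each counted. A CHR stood in 16 of 21 mitotic promoters (76.2%) and in 2 of 14 S-phase promoters (14.3%). It stood in 19.4% of all 27025 promoters and in 13.8% of those of genes in the table, near the S-phase share. E2F words stood in 9 of 14 S-phase promoters (64.3%) and in 3 of 21 mitotic promoters (14.3%), against 9.69% of all promoters and 16.4% of the 11309 promoters of genes in the table. The CCAAT box was frequent in both, in 17 of 21 mitotic (81.0%) and 9 of 14 S-phase promoters (64.3%), against 37.9% of all. A CHR and a CCAAT box together stood in 15 of 21 mitotic promoters (71.4%) and in 2 of 14 S-phase promoters (14.3%). They did so in 7.7% of all and in 5.85% of those of genes in the table. A match is a description of these letters and not a measured binding site.

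The 250 bases before the start are printed 5′ to 3′ on the strand of the gene, with matches in capitals. Mcm6 and Cdc6 are S-phase members with E2F words. Cenpf and Bub1b are the mitotic members with the lowest p-values. Ccnb2, chosen after its matches were seen, has 3 CCAAT boxes in a row.
Mcm6, chr1:128359706-128359955, minus strand: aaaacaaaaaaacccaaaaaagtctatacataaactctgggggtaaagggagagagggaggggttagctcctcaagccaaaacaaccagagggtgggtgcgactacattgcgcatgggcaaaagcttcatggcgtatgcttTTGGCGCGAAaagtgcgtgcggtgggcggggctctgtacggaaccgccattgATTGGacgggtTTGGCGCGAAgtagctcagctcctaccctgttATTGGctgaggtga
Cdc6, chr11:98907901-98908150, plus strand: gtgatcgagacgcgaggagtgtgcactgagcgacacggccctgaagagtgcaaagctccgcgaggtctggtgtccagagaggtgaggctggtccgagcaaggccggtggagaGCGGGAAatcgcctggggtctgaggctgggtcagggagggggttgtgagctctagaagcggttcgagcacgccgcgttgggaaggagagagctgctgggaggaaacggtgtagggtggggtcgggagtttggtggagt
Cenpf, chr1:189688087-189688336, minus strand: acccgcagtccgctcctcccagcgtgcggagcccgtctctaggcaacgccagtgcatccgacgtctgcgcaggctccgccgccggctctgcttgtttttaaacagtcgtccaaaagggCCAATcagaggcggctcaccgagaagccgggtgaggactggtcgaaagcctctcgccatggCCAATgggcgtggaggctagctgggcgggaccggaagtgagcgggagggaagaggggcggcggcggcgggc
Bub1b, chr2:118597961-118598210, plus strand: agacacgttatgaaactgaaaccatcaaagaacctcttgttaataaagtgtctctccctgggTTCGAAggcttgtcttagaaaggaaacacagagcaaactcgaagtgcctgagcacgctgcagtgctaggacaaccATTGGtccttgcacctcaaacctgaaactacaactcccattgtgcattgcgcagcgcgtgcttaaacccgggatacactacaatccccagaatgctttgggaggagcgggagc
Ccnb2, chr9:70421555-70421804, minus strand: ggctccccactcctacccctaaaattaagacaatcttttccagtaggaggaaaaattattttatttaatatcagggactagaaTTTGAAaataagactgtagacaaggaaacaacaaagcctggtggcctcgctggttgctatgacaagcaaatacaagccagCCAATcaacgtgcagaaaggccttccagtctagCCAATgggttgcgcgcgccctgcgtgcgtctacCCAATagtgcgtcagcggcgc
In Mcm6 the E2F words lie in 2 pairs of overlapping matches, which begin 109 and 106 and then 46 and 43 bases before the start, and 1 more lies after it. In Ccnb2 the CCAAT boxes begin 87, 54 and 21 bases before it. The CHR of Cenpf, 1 of 2 in Bub1b and 1 of 2 in Ccnb2 lie after the start, at positions 3, 41 and 5, and are not printed. Tyms and Nusap1, the other 2 members that the choice by p-value gave, had no match in this window.

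Steap4 itself had values of 17018, 9417, 8310.0 and 8851 in the controls, then 8313 in AKO 2 and 8014 in AKO 3, so that its level in whole tissue did not separate the groups and does not check the labels. Whether the counted reads include the deleted part of the gene is not known. Of the 6 libraries, Steap4AKO replicate 2 stood apart: 1080 genes were more than 2-fold above every other library there, against 20 to 148 in the others. Values were gene counts normalized between libraries by the authors, in columns that summed to 16573600 to 20547900. They are not reads, so the depth behind a low value is not known from the table and no counting interval is given. The counts without overlap over all members, and the medians, are therefore also given without Steap4AKO replicate 2 or for each Steap4AKO library.

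Cell cycle genes had higher values in Steap4AKO than in Steap4f/f, and most of this difference lay in 1 library. The log2 difference was above 0 for 38 members (90.5%), against 52.2% of the 15006 genes tested. Steap4AKO replicate 2 was the highest of the 6 libraries for 35 of the 42 members (83.3%), against 27.0% of genes tested, and it was above every control for 36 (85.7%), against 31.5%. It was below every control for 1 member, Dut (2.38%), against 28.6% of all genes. It was more than 2-fold above every other library for 15 members (35.7%), 13 of them mitotic, against 6.48% of all genes. Steap4AKO replicate 3 was above every Steap4f/f library for 13 members (31.0%), against 24.4% of all genes, and below every one for 5 (11.9%), against 23.4%. The share above lay near that of genes in general.

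No member passed an adjusted p of 0.05 (limma, Benjamini-Hochberg over all genes), where 71 genes in the table passed (0.473%), 6 as higher (0.04%) and 65 as lower (0.433%). The lowest adjusted p was that of Cenpf, at 0.0665. At an unadjusted p under 0.05, 9 members were higher (21.4%), 8 of them mitotic, and none was lower, against 8.45% of all genes higher and 9.66% lower. In 13 members (31.0%), 4 S-phase and 9 mitotic, both Steap4AKO libraries lay above all 4 Steap4f/f libraries, against 14.1% of all genes, while none lay below without overlap, against 14.4%. The count at an unadjusted p under 0.05 was 5, 5 and 4 without Steap4f/f replicate 1, 5 or 6, where the share of all genes is not given. The count without overlap, which fewer libraries meet more easily, was 21 without Steap4f/f replicate 2, where the share of all genes is not given either. Without Steap4AKO replicate 2 it was 13 (31.0%), where 24.4% of all genes lay above every control. Without Steap4AKO replicate 3 it was 36 (85.7%), where 31.5% of all genes did.

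**Figure D1:**
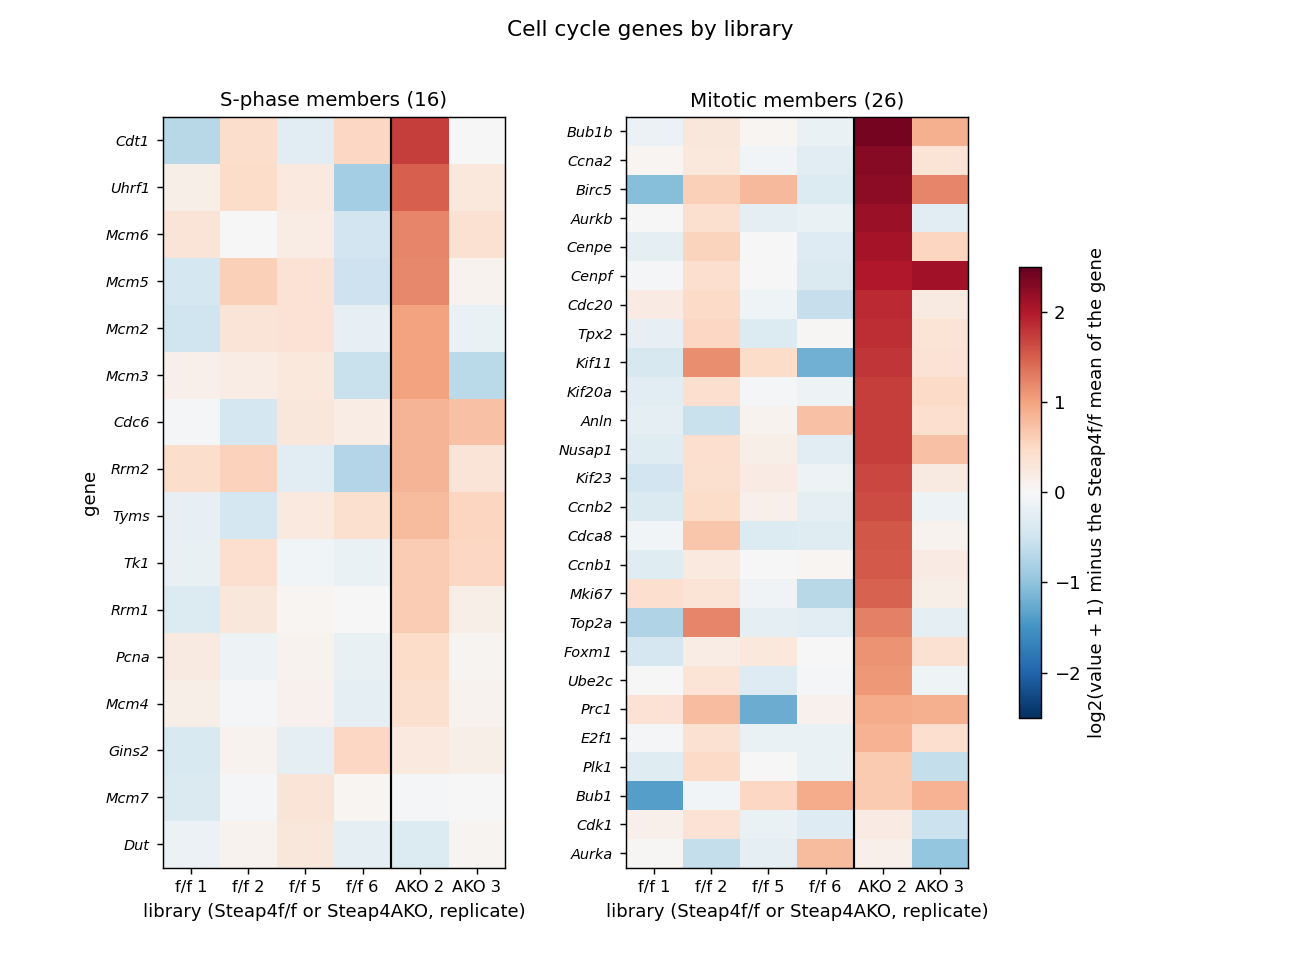
Log2(value + 1) of each member minus its Steap4f/f mean (colour) in the 6 libraries (columns), S-phase members on the left and mitotic members on the right, ordered by Steap4AKO replicate 2. The column of Steap4AKO replicate 2 is the highest for 13 of 16 S-phase and 22 of 26 mitotic members, while Cenpf is at about the same level in both Steap4AKO libraries.

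Mitotic members had larger differences than S-phase members. On a scale of log2(value + 1), the median difference of Steap4AKO from the controls was 0.93 over the 26 mitotic and 0.50 over the 16 S-phase members, against 0.02 over all genes tested. The medians were 1.65 and 0.82 in Steap4AKO replicate 2 alone, and 0.34 and 0.12 in Steap4AKO replicate 3 alone. The log2 difference was below 0 in only 4 members, Aurka and Cdk1 among the mitotic and Dut and Mcm7 among the S-phase members, and for Cdk1, Dut and Mcm7 the sign turned when columns were rescaled to an equal total.

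Within each library, the mean over S-phase members of the log2 level relative to Steap4f/f was -0.12, 0.15, 0.12 and -0.15 in the controls, 0.76 in AKO 2 and 0.16 in AKO 3. The same mean over mitotic members was -0.22, 0.39, -0.04 and -0.13 in the controls, 1.49 in AKO 2 and 0.31 in AKO 3. In Steap4AKO replicate 2 both sets were above all other libraries, while the S-phase mean of replicate 3 was only just above the highest Steap4f/f library and its mitotic mean lay below that of Steap4f/f replicate 2. The S-phase mean minus the mitotic mean was 0.11, -0.24, 0.16 and -0.02 in Steap4f/f, -0.72 in Steap4AKO replicate 2 and -0.15 in replicate 3. Relative to the controls, mitotic genes thus stood higher than S-phase genes in Steap4AKO replicate 2, while replicate 3 lay within the range of Steap4f/f. E2f1, which acts at entry into S phase, stands with the mitotic members in the list. With E2f1 moved to the S-phase members, a choice made after seeing the data, the mean of the 2 Steap4AKO libraries was -0.44, as before.

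Levels were also taken per kb of the longest coding transcript, a rough scale between genes because the transcript form expressed is not known. On this scale S-phase members together were 3.14, 2.27, 3.37 and 2.79 times as high as mitotic members in the Steap4f/f libraries. In Steap4AKO this ratio of summed values per kb was 1.56 in replicate 2 and 2.65 in replicate 3. The median S-phase level per kb was 56.6 over the Steap4f/f means, against 19.8 for the mitotic genes. Pcna was the highest, at 552 ± 73.9 per kb (SD, n = 4), followed by Mcm7 at 187 ± 36.0, and Gins2, Dut and Rrm1, at 106 ± 31.0, 100.4 ± 17.1 and 94.0 ± 16.2 per kb, did not differ beyond their spread. Mcm7 and Gins2 share exon bases with other genes, as given below, so their levels are uncertain. The lowest were Cenpe at 3.84 and Cenpf at 2.46 per kb, so that the largest difference of all members was in the gene of lowest level per kb. Across the 42 genes the level per kb in Steap4f/f and the log2 difference of Steap4AKO replicate 2 had a Spearman rho of -0.64, where both measures contain the same Steap4f/f values and genes are not independent replicates.

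**Figure D2:**
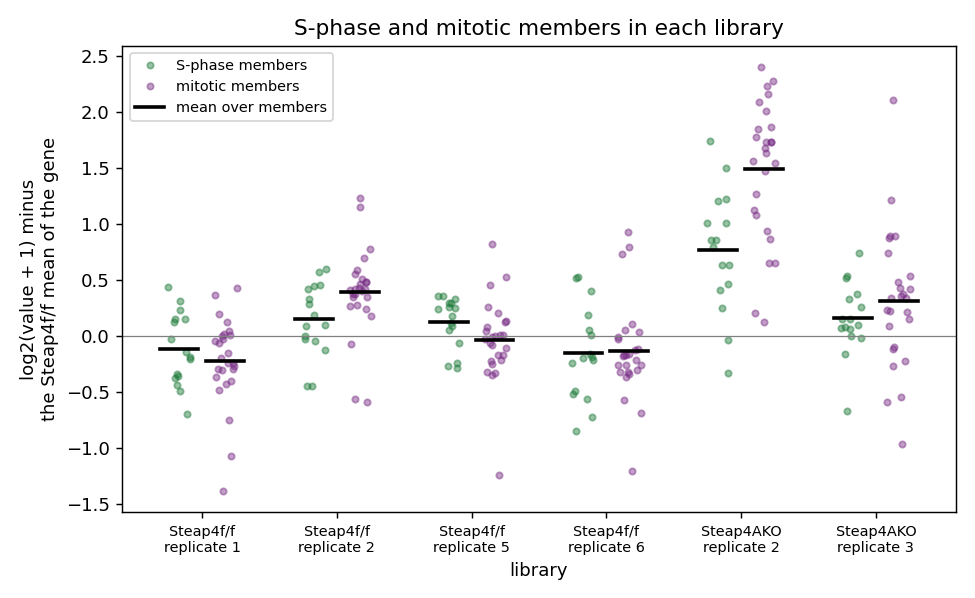
Log2(value + 1) minus the Steap4f/f mean of each gene (points) for S-phase and mitotic members in each library, with black bars for the mean over members. In Steap4AKO replicate 2 the means are 0.76 and 1.49, and in all other libraries they lie between -0.22 and 0.39.

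Among the Steap4f/f libraries, replicate 2 had the highest value of the 4 in 20 of 26 mitotic members but in only 5 of 16 S-phase members. Top2a was the extreme case, at 309 in that library and 77.7 to 113 in the other 3. The ratio of the highest to the lowest Steap4f/f library had a median of 1.78 over the 42 members and reached 5.84 in Bub1. Differences under 2-fold in a single gene were thus within the spread between controls for many members.

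Of the 6 subunits of the Mcm helicase, which unwinds DNA at the fork, 1 was higher without overlap (16.7%), near the 14.1% of all genes. This was Mcm6 (chromosome 1, 128331590 to 128359664, minus strand). Mcm6 had values of 313, 251, 285 and 179 in the controls, then 588 in AKO 2 and 328 in AKO 3 (a log2 difference of 0.80 with SE 0.31 and adjusted p = 0.239). Both Steap4AKO libraries were above all controls, with replicate 3 only slightly so. Mcm5 had 96.1, 199, 168 and 91.0 in the controls, then 303 in AKO 2 and 138 in AKO 3 (adjusted p = 0.474), so that replicate 3 lay in the middle of the controls. The 6 subunits form 1 ring, yet their ratios to the controls were unlike. In Steap4AKO replicate 2 Mcm2, Mcm3, Mcm5 and Mcm6 were at 1.96, 1.97, 2.19 and 2.29 times the Steap4f/f mean, Mcm4 at 1.32 and Mcm7 at 0.961 times. Mcm7 shares exon bases with other genes, as given below, so its ratio is uncertain. Mcm3 had 457 and 142 in Steap4AKO, which put replicate 3 below the whole Steap4f/f range of 154 to 271.

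Of the 2 licensing factors, Cdc6, an ATPase that loads the helicase, had 29.5, 21.9, 37.1 and 34.4 in the controls, then 55.4 in AKO 2 and 50.9 in AKO 3 (a log2 difference of 0.80 with SE 0.43 and adjusted p = 0.365). Both Steap4AKO libraries were above all controls and close to each other, although Cdc6 has the lowest values of the S-phase set. Cdt1, its partner, had 36.9, 82.5, 49.9 and 86.8 in the controls, then 203 in AKO 2 and 59.5 in AKO 3 (a log2 difference of 0.86 with SE 0.57 and adjusted p = 0.457), high in replicate 2 alone. Gins2, a subunit of the active helicase, had 309, 428, 339.6 and 578 in the controls, then 478 in AKO 2 and 444 in AKO 3 with its highest value in a control. Pcna, the sliding clamp that tethers polymerases, had 973, 763, 883 and 729.7 in the controls, then 1148 in AKO 2 and 869 in AKO 3 (a log2 difference of 0.26 with SE 0.18 and adjusted p = 0.475), and its Steap4AKO replicate 3 lay among the controls.

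Of the 5 enzymes of nucleotide supply, 2 were higher without overlap, where 14.1% of all genes were. Tyms, thymidylate synthase, had 72.1, 60.9, 98.9 and 110.1 in the controls, then 145 in AKO 2 and 121 in AKO 3 (a log2 difference of 0.66 with SE 0.34 and adjusted p = 0.34). Tk1, thymidine kinase, had 67.2, 103, 73.4 and 68.5 in the controls, then 119.5 in AKO 2 and 111 in AKO 3 (a log2 difference of 0.58 with SE 0.31 and adjusted p = 0.366). In both genes the groups did not overlap, and the difference was 1.56-fold and 1.48-fold. The ribonucleotide reductase subunits Rrm1 and Rrm2 had 1.31-fold and 1.44-fold higher means with overlap, and Dut, which removes dUTP, had 153 and 204 in Steap4AKO against 196 ± 33.3 (SD, n = 4) in Steap4f/f. Uhrf1, which guides maintenance of DNA methylation behind the fork, had 83.5, 103, 89.1 and 41.1 in the controls, then 214 in AKO 2 and 90.2 in AKO 3 (a log2 difference of 0.88 with SE 0.49 and adjusted p = 0.382), with replicate 3 among the controls.

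Both transcription factors of the set were higher without overlap, where 14.1% of all genes were. E2f1 (chromosome 2, 154559407 to 154569892, minus strand), which drives S-phase genes, had 166, 220.3, 150.2 and 150.4 in the controls, then 309 in AKO 2 and 228 in AKO 3 (a log2 difference of 0.64 with SE 0.26 and adjusted p = 0.247). Foxm1 (chromosome 6, 128362967 to 128376146, plus strand), which drives mitotic genes, had 66.4, 102, 107 and 88.8 in the controls, then 197 in AKO 2 and 117 in AKO 3 (a log2 difference of 0.75 with SE 0.34 and adjusted p = 0.292). In each, Steap4AKO replicate 3 was just above the highest control, and 24.4% of all genes were above every control there.

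Cyclins of the set were high in Steap4AKO replicate 2 and near the controls in replicate 3. Ccna2 (chromosome 3, 36564865 to 36572150, minus strand), cyclin A2 of S phase and early mitosis, had 79.0, 92.2, 73.3 and 63.8 in the controls, then 375 in AKO 2 and 97.1 in AKO 3 (a log2 difference of 1.31 with SE 0.51 and adjusted p = 0.237). Its 4 controls were close together, replicate 2 was 4.86 times their mean and replicate 3 was 1.26 times their mean. Ccnb1, cyclin B1, had 30.9, 45.2, 38.3 and 39.7 in the controls, then 113 in AKO 2 and 44.3 in AKO 3 (a log2 difference of 0.88 with SE 0.47 and adjusted p = 0.366). Ccnb2 had 109.5 and 31.9 in Steap4AKO and 26.8 to 48.1 in Steap4f/f. Cdk1, the kinase that these cyclins activate, had 94.1, 112, 76.5 and 68.9 in the controls, then 99.9 in AKO 2 and 58.9 in AKO 3 (adjusted p = 0.83), with replicate 3 the lowest of all libraries.

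The kinases Aurka and Plk1, which are not in the passenger complex, had log2 differences below the mitotic median of 0.93. Aurka, which matures the spindle poles, had 65.7, 42.8, 55.1 and 113 in the controls, then 70.5 in AKO 2 and 32.8 in AKO 3 (a log2 difference of -0.42 with SE 0.51 and adjusted p = 0.687). Plk1, Polo-like kinase 1, had 46.8, 81.1, 57.2 and 51.0 in the controls, then 91.2 in AKO 2 and 38.1 in AKO 3 (a log2 difference of 0.03 with SE 0.46 and adjusted p = 0.979). Steap4AKO replicate 3 was the lowest library in both, and the groups overlapped.

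The chromosomal passenger complex, which corrects attachments of chromosomes to the spindle, was read through 3 members. Birc5 (chromosome 11, 117849251 to 117855743, plus strand), also called survivin, had 15.4, 50.8, 59.5 and 26.2 in the controls, then 161 in AKO 2 and 78.7 in AKO 3 (a log2 difference of 1.72 with SE 0.62 and adjusted p = 0.213). Both Steap4AKO libraries were above all controls, which themselves differed 3.87-fold. Cdca8, borealin, had 40.2, 68.8, 33.2 and 33.9 in the controls, then 126 in AKO 2 and 44.6 in AKO 3 (a log2 difference of 0.82 with SE 0.53 and adjusted p = 0.445). Aurkb, the kinase of the complex, had 187 and 34.0 in Steap4AKO against 34.3 to 54.8 in Steap4f/f. The 2 Steap4AKO libraries thus differed 5.51-fold in Aurkb, the widest gap of all members, with replicate 3 below every control.

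Kinetochore genes gave the lowest p-values of the set. Cenpf (chromosome 1, 189640606 to 189688086, minus strand), a large protein of the outer kinetochore, had 25.9, 36.3, 26.8 and 20.5 in the controls, then 111 in AKO 2 and 119 in AKO 3 (a log2 difference of 2.06 with SE 0.40 and adjusted p = 0.0665). This was a 4.2-fold higher mean, and both Steap4AKO libraries were at a similar level, 4.05 and 4.35 times the Steap4f/f mean. Its log2 difference ranged from 1.93 to 2.20 when single libraries were left out. Bub1b (chromosome 2, 118598211 to 118641591, plus strand), the checkpoint protein BubR1, had 39.4, 53.4, 45.3 and 39.2 in the controls, then 236 in AKO 2 and 82.4 in AKO 3 (a log2 difference of 1.64 with SE 0.46 and adjusted p = 0.148), without overlap but 2.87-fold higher in replicate 2 than in replicate 3. Cenpe, a kinetochore motor, had 128 and 43.0 in Steap4AKO against 23.3 to 43.7 in Steap4f/f (adjusted p = 0.262). Bub1, the checkpoint kinase, had the lowest values of the set, 4.55, 12.8, 19.9 and 26.6 in the controls, then 21.8 in AKO 2 and 25.6 in AKO 3, and its controls alone spanned 5.84-fold.

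All 7 genes of the spindle and its midzone were highest in Steap4AKO replicate 2, where 27.0% of all genes were. Nusap1 (chromosome 2, 119618298 to 119651244, plus strand), which bundles spindle microtubules, had 42.7, 71.5, 58.2 and 43.9 in the controls, then 177 in AKO 2 and 88.9 in AKO 3 (a log2 difference of 1.23 with SE 0.41 and adjusted p = 0.191). Kif20a, a motor needed for cytokinesis, had 39.1, 63.6, 46.4 and 43.4 in the controls, then 159 in AKO 2 and 66.3 in AKO 3 (a log2 difference of 1.10 with SE 0.44 and adjusted p = 0.25). Prc1, which crosslinks midzone microtubules, had 73.6, 98.2, 23.5 and 61.3 in the controls, then 109.6 in AKO 2 and 107 in AKO 3 (a log2 difference of 0.91 with SE 0.55 and adjusted p = 0.416). These 3 were higher without overlap (42.9%), against 14.1% of all genes, though Prc1 only by a small margin over Steap4f/f replicate 2. The other 4, Kif11, Kif23, Tpx2 and Anln, had 1.99-fold to 2.39-fold higher means and overlapped, with Steap4AKO replicate 3 inside the range of the controls in each.

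The remaining mitotic members are 2 partners of the anaphase-promoting complex and 2 proteins of mitotic chromosomes. Cdc20, which activates the complex, had 36.8, 45.2, 29.6 and 21.2 in the controls, then 119 in AKO 2 and 37.8 in AKO 3 (a log2 difference of 1.05 with SE 0.57 and adjusted p = 0.369). Ube2c, its ubiquitin-conjugating enzyme, had 89.2, 114, 71.1 and 87.2 in the controls, then 189.9 in AKO 2 and 82.9 in AKO 3 (a log2 difference of 0.49 with SE 0.39 and adjusted p = 0.536). Mki67, the antigen Ki-67 that coats mitotic chromosomes, had 285, 270.2, 200.4 and 131 in the controls, then 589.5 in AKO 2 and 236 in AKO 3 (a log2 difference of 0.81 with SE 0.44 and adjusted p = 0.366). Top2a, the topoisomerase that untangles sister chromatids, had 77.7, 309, 113 and 109 in the controls, then 317 in AKO 2 and 112 in AKO 3 (a log2 difference of 0.52 with SE 0.60 and adjusted p = 0.678). In all 4 genes Steap4AKO replicate 2 was highest and replicate 3 lay within the range of the controls.

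**Figure D3:**
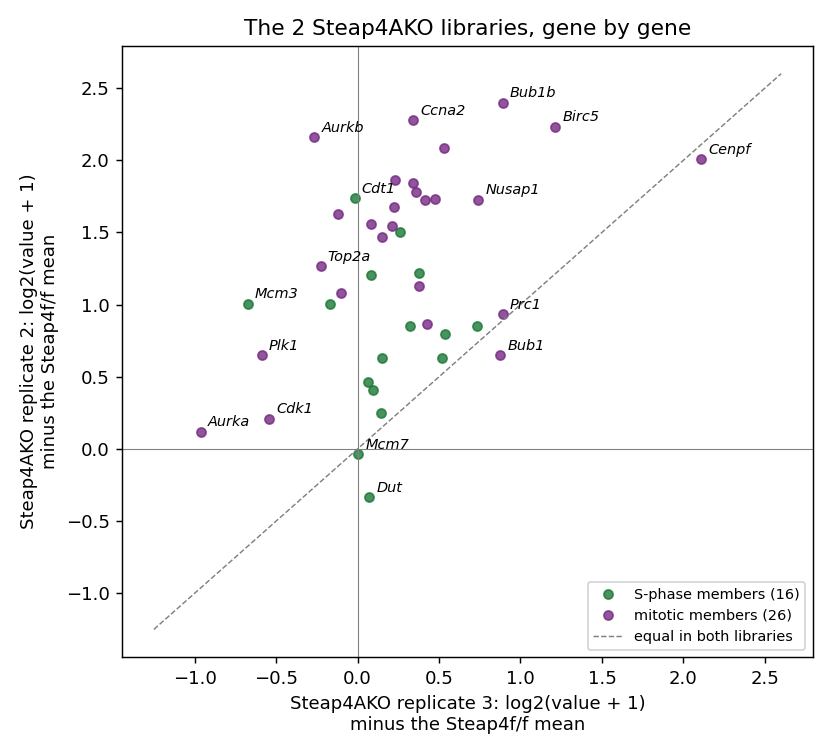
Log2(value + 1) minus the Steap4f/f mean in Steap4AKO replicate 3 (x axis) and replicate 2 (y axis) for the 16 S-phase and 26 mitotic members, with a dashed line where both are equal. Most mitotic members lie far above the line, Cenpf, Prc1 and Bub1 lie close to it, and Aurka, Plk1 and Cdk1 are among those left of 0.

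Other genes of the pathway, 245 in 13 lists, had 236 members tested, and none passed an adjusted p of 0.05. Of these 236 genes 38 were higher without overlap (16.1%), near the 14.1% of all genes, and 13 lower (5.51%), against 14.4%, and their median log2 difference was 0.24, with 0.36 in AKO 2 alone and 0.07 in AKO 3 alone. The largest medians of the 13 lists were 0.83 for spindle checkpoint and mitotic kinases, 0.72 for spindle motors and spindle proteins and 0.63 for kinetochore and centromere genes. In AKO 2 alone these 3 medians were 1.04, 1.24 and 1.32, and in AKO 3 alone they were 0.30, 0.19 and 0.40. The other 2 lists of mitotic genes had lower medians, 0.15 for condensin and cohesin (0.48 in AKO 2 and -0.02 in AKO 3) and -0.11 for the anaphase-promoting complex (-0.11 in each). Of 31 kinetochore and centromere genes 11 were higher without overlap (35.5%), against 14.1% of all genes. In that list 22 were highest in Steap4AKO replicate 2 (71.0%), against 27.0% of all genes. In that list Cenpa, the centromeric histone, had 70.4, 65.5, 59.8 and 43.4 in the controls, then 199.7 in AKO 2 and 133 in AKO 3 (a log2 difference of 1.46 with SE 0.34 and adjusted p = 0.104). Cenpu, of the inner kinetochore, had 13.3, 12.3, 5.48 and 7.41 in the controls, then 54.0 in AKO 2 and 53.5 in AKO 3 (a log2 difference of 2.44 with SE 0.61 and adjusted p = 0.117). Like Cenpf, Cenpu was at nearly the same level in both Steap4AKO libraries, from a low base. In the list of checkpoint and mitotic kinases, Wee1, the kinase that restrains Cdk1, had 45.8, 53.3, 28.5 and 49.8 in the controls, then 88.6 in AKO 2 and 131 in AKO 3 (a 2.48-fold higher mean, adjusted p = 0.174). Aurkaip1, an entry of that list but not a kinase gene, was 1.32-fold lower. Of the spindle proteins, Cit and Ckap2l had 2.24-fold and 2.49-fold higher means. In their list 4 of 27 genes were higher without overlap (14.8%), near the 14.1% of all genes.

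Among genes of the replication machinery outside the 42, medians were 0.24 for origin licensing and firing, 0.18 for polymerases, primase and ligase, 0.09 for nucleotide supply and -0.08 for chromatin copying. In AKO 2 alone these 4 medians were 0.27, 0.18, 0.11 and 0.39, and in AKO 3 alone they were 0.20, 0.07, 0.03 and -0.01. Timeless and Mtbp, of origin firing and fork protection, had 1.56-fold and 2.07-fold higher means. Dna2 had a 2.28-fold higher and Pole4 a 1.64-fold lower mean. In nucleotide supply Samhd1 was 1.32-fold higher and Ppat 1.48-fold lower. The assembly factors Chaf1a and Chaf1b had 1.67-fold and 2.5-fold higher means. Single values are not given for the genes named from these 4 lists, and a high Steap4AKO replicate 2 alone can raise such a mean. For replication stress and recombination the median was 0.42, with 0.88 in AKO 2 alone and 0.06 in AKO 3 alone, and Fanca and Blm had the lowest p-values. Fanca was listed at 0, 34.2, 10.97 and 5.65 in the controls, then 105 in AKO 2 and 18.2 in AKO 3. Blm had 7.37, 15.8, 113 and 13.3 in the controls, then 128 in AKO 2 and 43.2 in AKO 3. Their Steap4AKO replicate 3 values lay within the controls.

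Among genes of entry into the cycle, 5 of 14 G1 cyclins and kinases were higher without overlap (35.7%), against 14.1% of all genes. The median of this list was 0.22, with 0.40 in AKO 2 alone and 0.13 in AKO 3 alone. Ccnd2, cyclin D2, had 2441, 2513, 2389 and 1964 in the controls, then 4705 in AKO 2 and 3283 in AKO 3 (a log2 difference of 0.76 with SE 0.18 and adjusted p = 0.106), and Ccnd1, cyclin D1, had 737, 786, 805 and 520.3 in the controls, then 1622 in AKO 2 and 823 in AKO 3 (a log2 difference of 0.72 with SE 0.29 and adjusted p = 0.254). Both were higher without overlap, with Ccnd1 of Steap4AKO replicate 3 just above the highest control. Of 7 kinase inhibitors 6 were tested and none of these was called. None of the 6 was highest in Steap4AKO replicate 2, where 27.0% of all genes were, a share from which so few genes can hardly be told apart. Their median was -0.32 (-0.32 in AKO 2 and -0.24 in AKO 3). The seventh, Cdkn2a, was under the filter on low values and was highest in Steap4AKO replicate 2, at 6.42, 8.20, 9.72 and 0 in the controls, then 32.9 in AKO 2 and 0 in AKO 3. Cdkn2c and Cdkn1c had 1.38-fold and 1.28-fold lower means with overlap. In the list of E2F, pocket protein and DREAM genes, with a median of 0.06 (-0.08 in AKO 2 and 0.01 in AKO 3), Rbl1 (p107) was 1.58-fold higher and E2f2 1.61-fold lower, both without overlap. The condensin subunits Smc2 and Smc4 had 1.96-fold and 1.58-fold higher means. In the condensin and cohesin list only 1 of 17 genes was higher without overlap (5.88%), against 14.1% of all genes. In the anaphase-promoting complex list Anapc13, a small subunit, had 795, 921, 778 and 720.4 in the controls, then 454 in AKO 2 and 456 in AKO 3 (a log2 difference of -0.81 with SE 0.15 and adjusted p = 0.0658), lower in both Steap4AKO libraries, and Ube2s was 1.36-fold lower. None of these genes passed an adjusted p of 0.05.

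Summed markers of several cell types were highest in Steap4AKO replicate 2, while those of endothelial cells and stromal progenitors, given below, were not. Of all genes tested, 27.0% were highest in that library. Summed values of the 10 macrophage markers were 7246 to 8136 in Steap4f/f, 26774 in Steap4AKO replicate 2 and 7407 in replicate 3, and 9 of the 10 were highest in replicate 2. The 8 T and NK cell markers summed to 96.0 to 216 in Steap4f/f, 888 and 249 in Steap4AKO, with all 8 highest in replicate 2. The 7 B and plasma cell markers summed to 85.7 to 612, 1168 and 144, again with all 7 highest there. The 9 mesothelial markers summed to 57.4 to 473, 3458 and 32.4, all 9 highest in replicate 2, and Msln, Upk3b, Wt1 and Bnc1 were listed at 0 in Steap4AKO replicate 3. Of these, Upk3b was at 0 in 1 control too, Wt1 in 2 and Bnc1 in 3. Epithelial markers, of which Krt8 and Krt18 are in the mesothelial list too, summed to 726 to 1163 over 8 genes in Steap4f/f and to 3158 and 878 in Steap4AKO. Of the 7 tested 6 were highest in replicate 2, and Epcam and Krt14 were listed at 0 in replicate 3 and in 3 controls each. Krt14, which was under the filter on low values, was highest in a control, at 38.5 in Steap4f/f replicate 6 against 18.3 in Steap4AKO replicate 2.

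The 7 erythroid markers summed to 38200 in Steap4AKO replicate 2, against 11132 to 26922 in Steap4f/f and 25459 in replicate 3. Of the 7, 5 were highest in replicate 2 (71.4%), against 27.0% of all genes, and 1, Slc4a1, was below every control. The 6 mast cell markers summed to 882 in replicate 2, inside the Steap4f/f range of 779 to 1854, and to 681 in replicate 3, below it. The 2 neutrophil markers tested summed to 181 in replicate 2, above a range of 32.5 to 113, and to 66.4 in replicate 3. Of 5 markers of satellite cells and myogenic factors, Myod1, Myf6 and Cdh15 were listed at 0 in replicate 2, while Vcam1, which other cells express too, was highest there at 697. The 10 endothelial markers summed to 27234 in Steap4AKO replicate 2, inside the Steap4f/f range of 25994 to 27662, with none highest there, and to 29886 in replicate 3, above that range. The 10 adipocyte markers summed to 506960 to 669130 in Steap4f/f and to 318320 and 490910 in Steap4AKO. The 10 stromal progenitor markers summed to 88555 to 110120 in Steap4f/f and to 68720 and 73310 in Steap4AKO. Skeletal muscle markers, of which all 16 were in the table, summed to 156540 to 838940 in Steap4f/f and to 5519 and 20546 in Steap4AKO. The part of these cell types in the cell cycle result was not tested. In Steap4AKO replicate 3, summed macrophage, B and plasma cell, neutrophil, epithelial and erythroid markers were within the Steap4f/f range. T and NK cell and endothelial markers were above it. Skeletal muscle, satellite cell, adipocyte, stromal progenitor, mesothelial and mast cell markers were below it. In this library the median of the mitotic members was 0.34 and Cenpf was at 119.

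**Figure D4:**
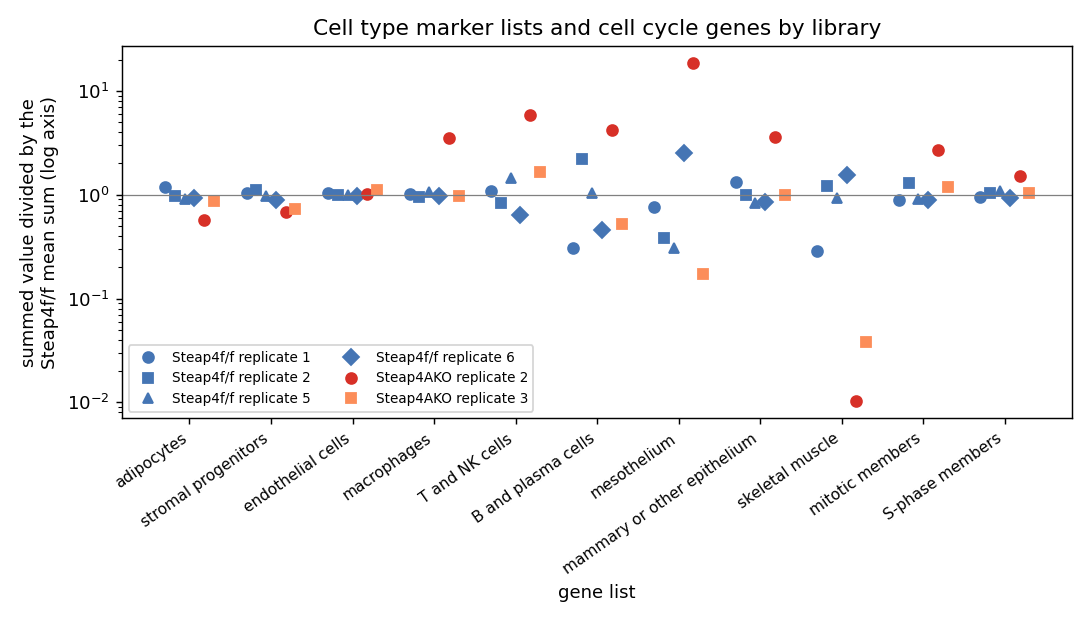
Summed values of marker lists and of the cell cycle members in each library, divided by the mean sum of the 4 Steap4f/f libraries (log axis). Steap4AKO replicate 2 is above all other libraries for macrophage, T and NK, B and plasma, mesothelial, epithelial, mitotic and S-phase genes and inside the Steap4f/f range for endothelial genes.

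Of the 42 members 10 share exon bases with another gene of the table, in each case on the opposite strand, and since strandedness is not given, their reads may not be separable. The longest overlap is that of Gins2 with Gse1, 2758 bases, where Gse1 had 245, 483, 883 and 679 in the controls, then 889 in AKO 2 and 683 in AKO 3. Kif20a shares 1271 bases with Cdc23, which had 834, 725, 825 and 860.4 in the controls, then 846 in AKO 2 and 1120.2 in AKO 3. Prc1 shares 911 bases with Rccd1, which had 198 and 277 in Steap4AKO and 167 to 305 in Steap4f/f. Ube2c shares 592 bases with Tnnc2, a muscle troponin at 4298, 17572, 13984 and 15877 in the controls, then 245 in AKO 2 and 406 in AKO 3, which was lowest in the library where Ube2c was highest. Ccna2 shares 510 bases with Exosc9, at 495, 310.2, 349 and 335 in the controls, then 415 in AKO 2 and 395 in AKO 3, whose groups overlap. Shorter overlaps are those of Mcm7 with Ap4m1 (321 bases) and Cops6 (64), Cdca8 with 9930104L06Rik (232), Nusap1 with Oip5 (172), Tk1 with Afmid (83) and Cdc20 with Elovl1 (53). Ccnb2 has a processed copy, Ccnb2-ps, with 23.3 and 15.6 in Steap4AKO against 12.7 to 31.3 in the controls, so that Ccnb2 is uncertain at this level. Cenpf, Bub1b and Birc5 share no exon bases with a gene of the table.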

How the data were processed

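Total RNA of iWAT was extracted with a lipid tissue kit and sequenced by a company, per the labels' protocols. The deposited table gives 1 column per library in a signal unit, which the authors made by scaling counts per gene with DESeq2, as its title says. DESeq2 1.12.4, R 4.2.0, RSEM 1.3.3 and STAR 2.7.0e are named in the submitters' processing notes, with builds mm10 and GRCm38 but no roles, and strandedness and annotation are not given in the sources used here. Only 39.9 to 54.9% of low values were near whole reads (tolerance 0.1) under the step tried per library, so no count test was run. Symbols, coordinates and the longest coding transcript came from GENCODE M21 on GRCm38 and matched 15125 of 15176 identifiers.

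Log2(value + 1) was fitted with limma 3.58.1 (R 4.3.3, intensity trend, 2 groups, no covariate) over 15006 genes with a mean of at least 10, which removed 170. All 42 members passed this filter. Tests are two-sided, adjusted by Benjamini-Hochberg over these genes, and the log2(value + 1) scale understates changes of low genes. Folds are ratios of group means, so a fold given without single values may rest on 1 Steap4AKO library. The fit was tested on simulated data. Figures and counts used Python 3.11.15. Members and lists were chosen with earlier results of these data known, so no test over a list was made. Members without overlap, and the 2 of lowest p in each role, are given in every library, and some others were added where they complete a complex. Other pathway lists are shown by their 2 genes of lowest p. Alternatives were pseudocounts of 0.5 and 5, no filter or a mean of at least 50, 3 scalings (equal total, trimmed mean of M values, quantile), 3 variance settings and each library left out, where a lone Steap4AKO library is taken to vary like the others.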

Additional observations from a re-analysis of the deposited data

Results flagged for a closer look

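Top2a in Steap4f/f was flagged because 1 control stood far from the others: replicate 2 had 309, against 77.7, 113 and 109 in replicates 1, 5 and 6, so that the gap to the nearest control was 0.848 of the range. This was 1 flag in 45 checks of 4 controls each, over the 42 members and 3 scores, where chance flags about 1 in 20.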

How the results depend on the processing

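The count of 71 genes past the threshold over the whole table was 1 with a pseudocount of 0.5, with a mean of at least 50 and with a robust prior, 13 without the trend, 123 with a pseudocount of 5 and 119 with array weights. With single libraries left out it was 1 (without Steap4f/f replicate 2, 5 or 6 or Steap4AKO replicate 2) to 821 (without Steap4AKO replicate 3), and 238 without Steap4f/f replicate 1. The count of members past the threshold was 0 in every setting that kept both Steap4AKO libraries. Without Steap4AKO replicate 3, Ccna2 and Bub1b had log2 differences of 2.28 and 2.40. A fit with 1 Steap4AKO library has no spread of its own in that group, so its calls are not read as a cell cycle result. Members at an unadjusted p under 0.05 numbered 9, but 5 with array weights, 15 after rescaling to an equal total and 1 to 23 with single libraries left out, and members higher without overlap 13 to 36. The share of all genes at an unadjusted p under 0.05 is not given for these other settings. Equal-total rescaling raised the median of all genes too, as given below, so the 15 is not read as a stronger cell cycle difference. The 36 without overlap was reached without Steap4AKO replicate 3, where 31.5% of all genes lay above every control. With single libraries left out, the S-phase median was 0.12 to 0.82, the mitotic median 0.34 to 1.65 and the S-phase minus mitotic level of Steap4AKO -0.72 to -0.15, the extremes being those without 1 of the Steap4AKO libraries. Under the other settings they were 0.41 to 0.68, 0.83 to 1.11 and -0.52 to -0.40, including medians over members (-0.52) and summed values per kb (-0.49). Rescaling to an equal total moved the median of all genes to 0.21 and turned Mcm7 to 0.17, Dut to 0.051 and Cdk1 to 0.013, while Plk1 was -0.033 under quantile normalization and -0.044 with array weights. With single libraries left out, 12 members changed sign in some setting. Without Steap4AKO replicate 2 they included Mcm2 (range -0.17 to 1.01), Mcm3 (-0.67 to 1.01), Cdt1 (-0.018 to 1.74), Top2a (-0.23 to 1.27), Ccnb2 (-0.12 to 1.63), Aurkb (-0.27 to 2.16), Plk1 (-0.59 to 0.65), Ube2c (-0.10 to 1.08) and Dut (-0.33 to 0.071). Without Steap4AKO replicate 3 they were Cdk1 (-0.55 to 0.21) and Aurka (-0.96 to 0.12), and Mcm7 (-0.14 to 0.093) turned without Steap4f/f replicate 5 or 6 or Steap4AKO replicate 2. Mcm3 turned also without Steap4f/f replicate 6 and Plk1 without Steap4f/f replicate 1 or 6. The causes were not tested. No paired analysis was possible because the 2 groups share only replicate number 2. Depth is unknown, and low members such as Bub1 are the least precise.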
